A study of Mus musculus with 4 samples.

Results

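The genes described here are 9 genes that make, break down, carry or respond to retinoic acid: the synthesis enzymes Rdh10 and Aldh1a2, the breakdown enzyme Cyp26b1, the binding proteins Crabp1 and Crabp2, and the nuclear receptors Rara, Rarb, Rarg and Rxra. They were taken by name from 23162 genes and clusters with a count, and their counts were summed over the tags that the deposited table gives to each Ensembl gene. The samples were dissected hindlimbs and forelimbs of CD1 mouse embryos at E14.5, with 2 biological replicates of each limb type per the labels, and no genotype or treatment is given for either. The labels do not say whether 1 sample held limbs of several embryos, nor whether hindlimb and forelimb libraries of the same number came from the same animals. The p-values therefore measure the spread between these samples, with the spread of each gene drawn in part from all genes. Expression was read by digital gene expression with SAGE tags. NlaIII, an enzyme that cuts at CATG, trims each cDNA, and the 17 bases that follow the site are sequenced and counted as a tag.

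Retinol is carried to cells in the blood, oxidised to retinaldehyde by the RDH10 enzyme and then to retinoic acid by ALDH1A2. The acid is broken down by the CYP26 enzymes. Inside the cell CRABP proteins bind the acid, and in the nucleus a retinoic acid receptor (RAR) paired with a retinoid X receptor (RXR) sits on DNA and turns target genes on when the acid is bound. In mouse limbs Cyp26b1 keeps the distal limb bud low in retinoic acid, and the pathway is known for its part in proximal-distal pattern, in the loss of tissue between digits and in cartilage formation.

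The hindlimb libraries held 5325279 and 5015295 tag counts and the forelimb libraries 4695786 and 1829647, of which 81.3% to 85.2% lay in tags with a gene or cluster. In TMM-scaled CPM, edgeR's unit of counts relative to library size, 1 count was worth 0.224 and 0.254 in hindlimb and 0.256 and 0.621 in forelimb. Transcription factors that distinguish the limbs went with the labels. Pitx1 stood at 254 and 305 CPM in hindlimb and at 3.33 and 1.24 CPM in forelimb. Tbx5 stood at 0.894 and 1.52 CPM in hindlimb and at 18.4 and 14.9 CPM in forelimb. Markers of muscle, cartilage, tendon, epidermis, endothelium and connective tissue all had counts in all 4 libraries when summed by cell type, and the sum of 6 connective tissue markers lay between 3999 and 4328 CPM in all 4. The summed level of 5 cartilage markers was 2857 and 3970 CPM in hindlimb, against 2184 and 1900 CPM in forelimb. In the test described below, 1 of these 5 passed as higher in hindlimb and 1 as higher in forelimb. The sum of 7 skeletal muscle markers was 1015 and 1181 CPM in hindlimb and 2809 and 2292 CPM in forelimb, and that of 3 erythroid markers was 4764 and 5602 CPM in hindlimb and 11741 and 9335 CPM in forelimb. The other 2 erythroid markers, Hbb-bt and Hba-a1, had no count. The bases of the tags differed as well, with a mean GC content of 46.3% and 50.4% in hindlimb and 40.6% and 40.2% in forelimb.

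Between the limb types, 2 of the 9 retinoid genes passed the test, the receptors Rarb and Rarg, both higher in hindlimb, and none passed as higher in forelimb. Over all 13718 genes tested 16.7% passed, 9.58% as higher in hindlimb and 7.08% as higher in forelimb (edgeR's quasi-likelihood test, Benjamini-Hochberg adjusted p under 0.05). The median log2 fold change of hindlimb over forelimb was 0.68 over the 9 genes and -0.03 over all genes tested. In 6 of the 9 genes the 2 limb types did not overlap, 5 with hindlimb above and 1 with forelimb above, where 62.8% of all genes tested were separate, 31.4% in each direction. All 9 genes passed the filter on low counts. Because tag composition differed between limb types, fold changes are also given with a tag-sequence offset. This is a correction per library for the bases of a tag, learned only from how tags of 1 gene differ from each other. A change in the level of a gene as a whole does not enter it, while a limb difference in which of its sites are read can. With the tag-sequence offset 0.168% of all genes passed and none of the 9 did, their median being 0.46 and their range -0.72 to 1.76. With an offset for GC content alone 6.54% of all genes passed, in DESeq2 16.5%, and with tags of the last NlaIII site alone 23.3%. Leaving out 1 library moved the share as well. It was 27% with hindlimb replicate 1 left out and 7.16% with hindlimb replicate 2 left out, and 7.2% and 6.48% with the first or the second forelimb replicate left out.

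**Figure D1:**
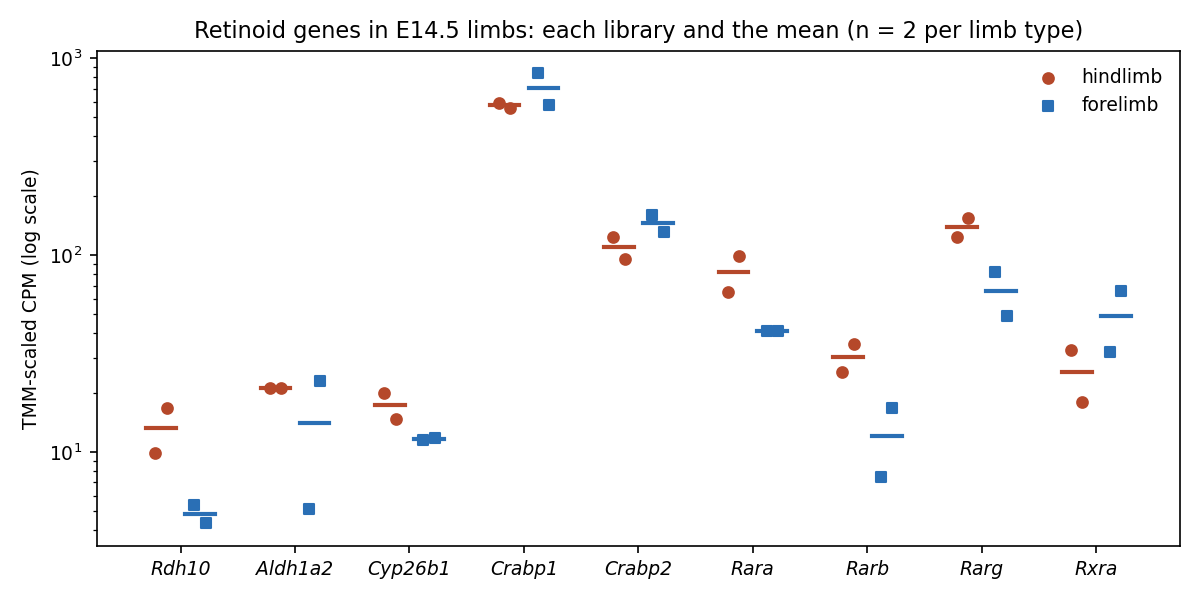
TMM-scaled CPM (log axis) of the 9 retinoid genes, ordered by role, with a point per library and a bar at the mean of each limb type (n = 2 each, hindlimb left of forelimb). Hindlimb points lie above both forelimb points for Rdh10, Cyp26b1, Rara, Rarb and Rarg, and below them for Crabp2.

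**Figure D2:**
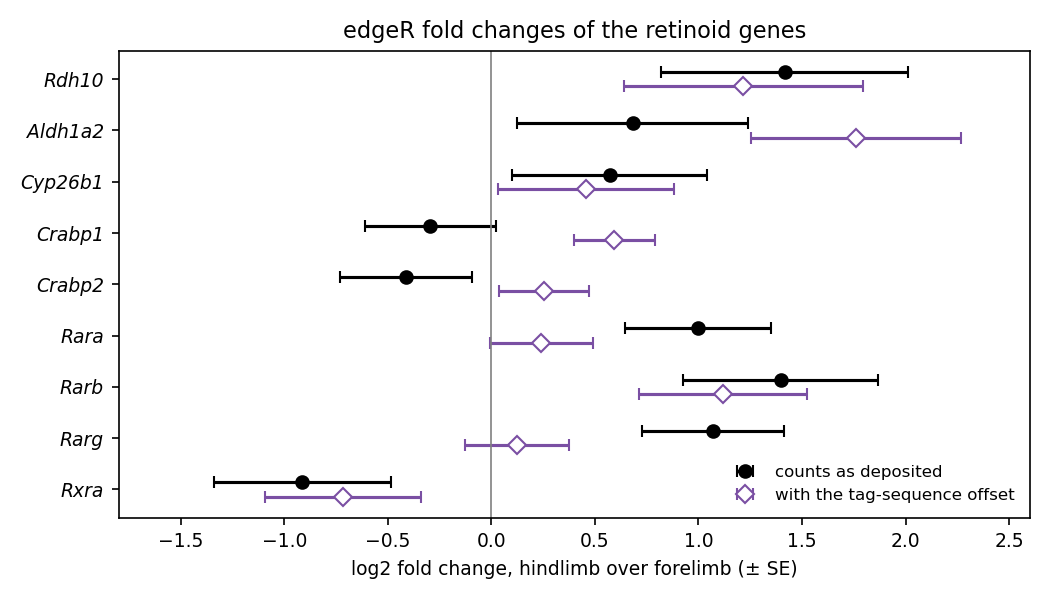
Log2 fold change of hindlimb over forelimb with its standard error for the same genes, from the counts as deposited (filled circles) and with the tag-sequence offset (open diamonds). Rdh10 and Rarb lie above 1 in both fits, Rara and Rarg move from about 1 to 0.24 and 0.12, and Crabp1 and Crabp2 move from below to above 0.

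Of the synthesis enzymes, Rdh10 (chr1:16105774-16133734, plus strand; all positions are from GENCODE M21 on GRCm38) encodes the retinol dehydrogenase that makes retinaldehyde. It had 44 and 66 counts, or 9.84 and 16.7 CPM, in hindlimb and 21 and 7 counts, or 5.38 and 4.35 CPM, in forelimb. Both hindlimb libraries were above both forelimb libraries, and the difference did not pass the test (log2 fold change 1.42 ± 0.60 SE, edgeR adjusted p = 0.109). In bulk samples such as these, fewer cells of a type and less RNA per cell cannot be told apart. The counts behind this value came from 8 tags, and those with most counts lie 2232 to 2554 bases before the end of the gene. The tag beside the last NlaIII site of the transcript, 90 bases before its end, is in the deposited table without an Ensembl gene. It alone held 173 counts, against 138 in the 8 tags together. The first line below is this tag and the second the one given to Rdh10 with most counts (capitals mark the NlaIII site, lower case the counted bases, 5′ to 3′).
Rdh10 last site, chr1:16133644-16133664: CATGtgttggagtctaatctg
Rdh10 coding site, chr1:16131321-16131341: CATGtatcgatttctaggagc
The tag of the last site had 52 and 16 counts in hindlimb and 61 and 44 in forelimb, opposite in direction to the coding tag, which had 11 and 23 counts in hindlimb and 11 and 1 in forelimb. Its own fold change was -1.42 and did not pass among single tags (edgeR adjusted p = 0.176). When every tag was given its gene from the M21 transcripts instead, an alternative added after these tags had been seen, Rdh10 stood at 28.3 and 27.9 CPM in hindlimb and 27.9 and 41.2 CPM in forelimb, and the limb types overlapped (log2 fold change -0.28, adjusted p = 0.68).

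Aldh1a2 (chr9:71215789-71296243, plus strand), which encodes the retinaldehyde dehydrogenase that makes the acid in most of the embryo, had 94 and 83 counts in hindlimb and 20 and 37 in forelimb. In CPM that is 21.02 and 21.04 in hindlimb against 5.12 and 23.0 in forelimb. The hindlimb libraries were alike and the forelimb libraries were not, one of them standing above both hindlimb libraries. The fold change of 0.68 ± 0.56 did not pass (edgeR adjusted p = 0.428). Which forelimb library is kept decides it: without forelimb replicate 1 the fold change was -0.13 (adjusted p = 0.918), and without forelimb replicate 2 it was 2.02 and passed (adjusted p = 0.0413). Most of its counts came from the tag of the last site, in the 3′UTR.
Aldh1a2 last site, chr9:71296107-71296127: CATGtgaacacacgattaacc
That tag had 62 and 75 counts in hindlimb and 8 and 33 in forelimb. With the tag-sequence offset the gene's fold change was 1.76 ± 0.51, the highest of the 9 genes, and did not pass (adjusted p = 0.272).

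The breakdown enzyme Cyp26b1 (chr6:84571414-84593908, minus strand), a cytochrome P450 that hydroxylates retinoic acid, had 19.9 and 14.7 CPM in hindlimb and 11.5 and 11.8 CPM in forelimb, from 89 and 58 counts in hindlimb and 45 and 19 in forelimb. The limb types were separate and close, and the fold change of 0.57 ± 0.47 did not pass (edgeR adjusted p = 0.431). The table gave Cyp26b1 8 tags with 211 counts, while 9 further tags that match its transcripts and no other gene, with 964 counts, carry no Ensembl gene. The 2 tags nearest the end of the gene are among these 9, and they are shown with the most counted tag given to the gene.
Cyp26b1 site 75 bases before the end, chr6:84571469-84571489: CATGcattttgtgaaatactc
Cyp26b1 site 239 bases before the end, chr6:84571633-84571653: CATGgttcaaaatattaatat
Cyp26b1 site 844 bases before the end, given to the gene, chr6:84572238-84572258: CATGtgactctggtcctggtg
The first had 219 and 182 counts in hindlimb and 144 and 30 in forelimb, and the second, with a GC content of 11.8%, had 111 and 41 in hindlimb and 144 and 33 in forelimb. These 2 tags of a single exon had fold changes of opposite sign, 0.74 and -0.73, and neither passed among single tags (adjusted p = 0.335 and 0.43). The third had 53 and 42 counts in hindlimb and 39 and 14 in forelimb. With all tags assigned from the M21 transcripts, Cyp26b1 stood at 127 and 101 CPM in hindlimb and 117 and 76.8 CPM in forelimb, so that the limb types overlapped (log2 fold change 0.22 ± 0.33, adjusted p = 0.693).

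**Figure D3:**
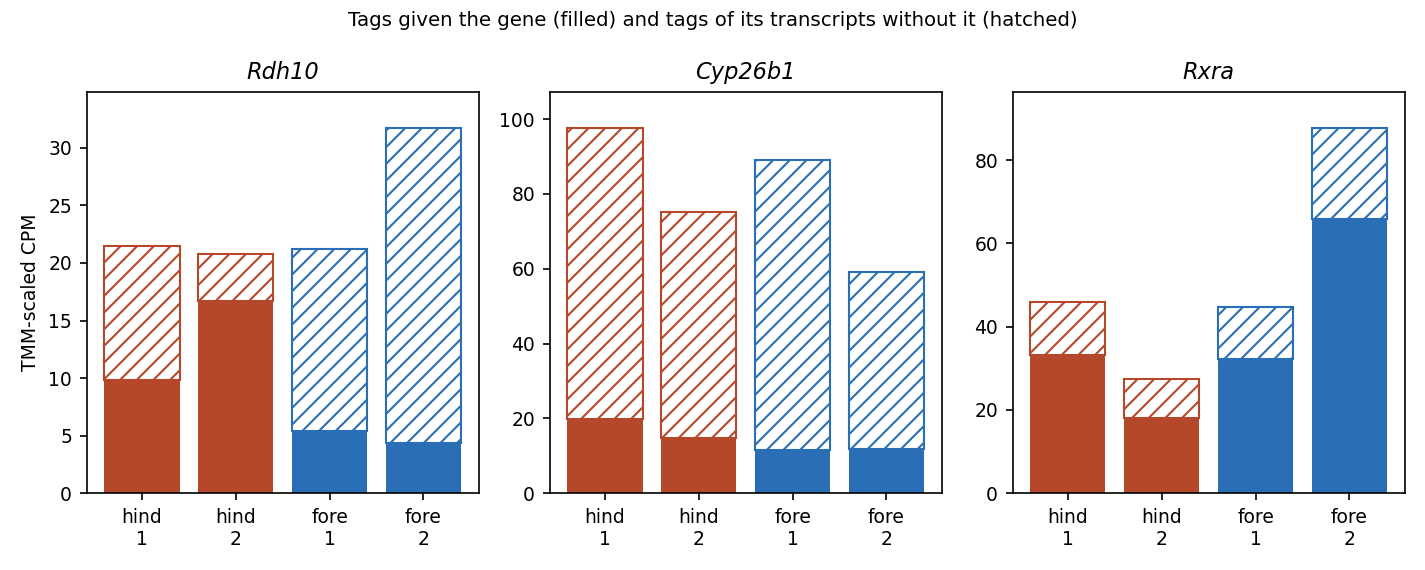
TMM-scaled CPM per library (hindlimb left, forelimb right) of Rdh10, Cyp26b1 and Rxra, split into tags to which the deposited table gives the gene (filled) and tags that match its transcripts alone but carry no Ensembl gene there (hatched); each panel has its own axis. The hatched part exceeds the filled part in all 4 libraries for Cyp26b1 and in 3 of 4 for Rdh10.

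The binding proteins did not pass in either direction. Crabp1 (chr9:54764748-54773110, plus strand) is a small cytoplasmic carrier of retinoic acid. It had 2658 and 2205 counts in hindlimb and 3270 and 926 in forelimb, or 594 and 559 CPM in hindlimb and 837 and 575 CPM in forelimb. One forelimb library stood above the rest and the other lay between the hindlimb libraries (log2 fold change -0.29 ± 0.32, edgeR adjusted p = 0.56). Without forelimb replicate 1 the fold change was 0.01, and with the tag-sequence offset it was 0.59 ± 0.20, neither passing the test. Crabp2 (chr3:87948666-87953376, plus strand), which hands retinoic acid to the receptors, had 123 and 95.8 CPM in hindlimb and 159 and 131 CPM in forelimb, from 549 and 378 counts in hindlimb and 622 and 211 in forelimb. It was the only one of the 9 genes with both forelimb libraries above both hindlimb libraries (log2 fold change -0.41 ± 0.32, edgeR adjusted p = 0.394), and with the offset the direction turned (0.25 ± 0.22).

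The tags of Crabp1 did not move together. The gene has 6 NlaIII sites with a matched tag, and the sites nearest to and farthest from the end of the transcript are shown because the fold changes of their tags had opposite signs and only the upstream tags passed the test.
Crabp1 site 1, 3′UTR, chr9:54773076-54773096: CATGattgtaccagtcattaa
Crabp1 site 2, 3′UTR, chr9:54773009-54773029: CATGacattgttgtagtgtcc
Crabp1 site 5, coding exon 2 of 4, chr9:54765493-54765513: CATGctgaggaaggtggccgt
Crabp1 site 6, 5′UTR in exon 1, chr9:54764901-54764921: CATGcccaacttcgccggtac
Site 1 had 616 and 425 counts in hindlimb and 977 and 156 in forelimb, and site 2 had 1102 and 994 in hindlimb and 1340 and 494 in forelimb. Site 5 had 144 and 120 counts in hindlimb and 19 and 7 in forelimb, and site 6 had 116 and 91 in hindlimb and 11 and 6 in forelimb. Both upstream tags passed among the 37805 single tags tested, of which 6.22% passed, 4.58% as higher in hindlimb and 1.64% as higher in forelimb. The fold change was 2.73 ± 0.53 at site 5 (edgeR adjusted p = 0.0263) and 2.92 ± 0.58 at site 6 (adjusted p = 0.0282). Without forelimb replicate 1 neither passed (adjusted p = 0.0547 and 0.0771). At sites 1 and 2 the fold change was -0.52 and -0.39, and neither passed. The coding tag held 5.42% (Wilson 95% interval 4.62% to 6.34%) and 5.44% (4.57% to 6.47%) of the Crabp1 counts in hindlimb, against 0.581% (0.372% to 0.906%) and 0.756% (0.367% to 1.55%) in forelimb. The 4 tags of the 3′UTR held 89.8% and 90.1% of the counts in hindlimb and 99.0% and 98.6% in forelimb. Intervals cover counting error only, since the tags are PCR products without molecular identifiers. The tags of sites 4, 5 and 6 each have a GC content of 64.7%, against 29.4% to 41.2% at sites 1 to 3. Site 4, which lies in the 3′UTR like sites 1 to 3, had 138 and 183 counts in hindlimb and 56 and 22 in forelimb (log2 fold change 1.45 ± 0.48, adjusted p = 0.0895). With the tag-sequence offset the 6 fold changes lay between 0.40 and 1.16 and none passed, where 0.0317% of all single tags did.

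**Figure D4:**
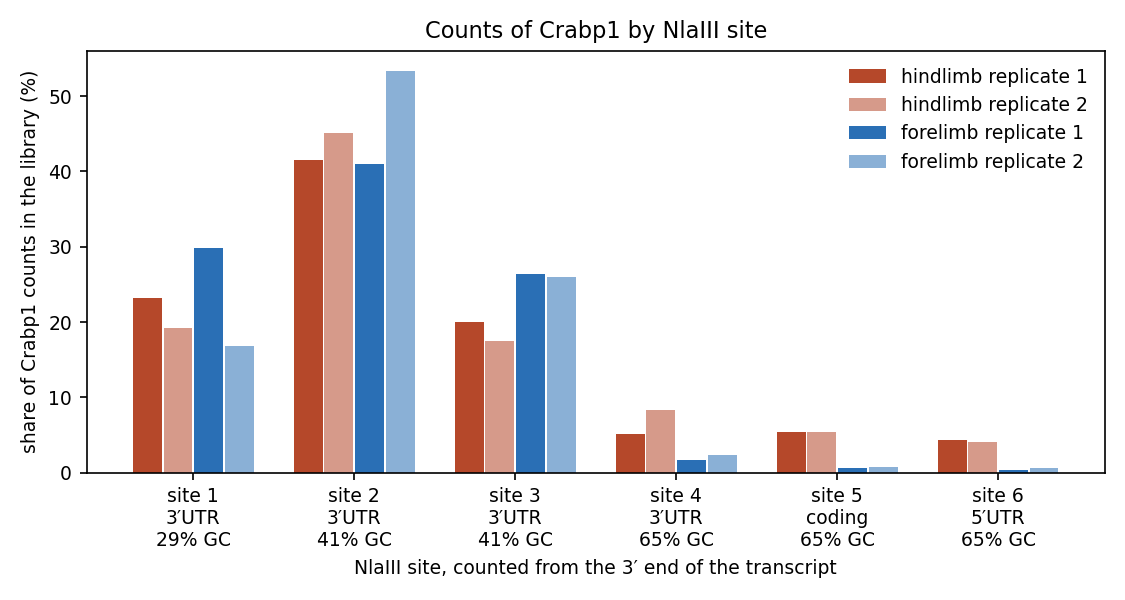
Share of the Crabp1 counts of each library that fell on each of its 6 NlaIII sites, counted from the 3′ end, with the region and GC content of each tag (hindlimb bars left of forelimb bars). Sites 4 to 6, all of high GC content, took larger shares in both hindlimb libraries than in either forelimb library, while site 2 took the largest share in all 4.

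Crabp2 was read almost wholly by 1 tag in its second exon, beside the only NlaIII site of the transcript that had a matched tag.
Crabp2 coding exon 2 of 4, chr3:87952122-87952142: CATGatgatgaggaagatcgc
This tag held 539 and 378 counts in hindlimb and 622 and 211 in forelimb, and its fold change was -0.43 with no offset and 0.27 with it.

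The receptors of the RAR family, which bind retinoic acid directly, each stood higher in both hindlimb libraries than in both forelimb libraries. Rara (chr11:98927818-98974942, plus strand), the most widely expressed family member, had 65.1 and 99.4 CPM in hindlimb and 41.2 and 41.0 CPM in forelimb, from 291 and 392 counts in hindlimb and 161 and 66 in forelimb. The forelimb libraries were alike, the hindlimb libraries were spread, and the fold change of 1.0 ± 0.35 fell just short (edgeR adjusted p = 0.0582). It passed without hindlimb replicate 1 (1.26, adjusted p = 0.00686) and with tags assigned from M21 (1.03, adjusted p = 0.0476), and it turned to -0.26 with an offset for GC content alone. Rarb (chr14:16430839-16819156, minus strand), itself a direct target of retinoic acid through an element in its promoter, had 114 and 139 counts in hindlimb and 29 and 27 in forelimb. In CPM it stood at 25.5 and 35.2 in hindlimb and at 7.43 and 16.8 in forelimb. The fold change was 1.40 ± 0.47, at the edge of the threshold (edgeR adjusted p = 0.0497), and it was lost without forelimb replicate 1 (0.85, adjusted p = 0.39), without hindlimb replicate 2 (1.16, adjusted p = 0.199) and in DESeq2 (1.37, adjusted p = 0.076). It did not pass with library totals alone (1.34, adjusted p = 0.0644) or the GC offset (1.33, adjusted p = 0.0733), and it was 1.18 with tags assigned from M21 (adjusted p = 0.0664). The 3′ end of Rarb overlaps Top2b on the opposite strand, and the tags shown here match the strand of Rarb. Rarg (chr15:102234938-102257517, minus strand) is known for its expression in cartilage precursors and skin. It had 555 and 609 counts in hindlimb and 320 and 79 in forelimb, or 124 and 154 CPM in hindlimb and 81.9 and 49.1 CPM in forelimb. Its fold change was 1.07 ± 0.34 (edgeR adjusted p = 0.04), and it was lost without forelimb replicate 1 (1.50, adjusted p = 0.0759), forelimb replicate 2 (0.76, adjusted p = 0.382) or hindlimb replicate 2 (0.91, adjusted p = 0.106). It did not pass with the most abundant tag alone (0.91, adjusted p = 0.138), the tags of the last site alone (0.97, adjusted p = 0.0898) or the GC offset (0.91, adjusted p = 0.0575).

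Within the family the tag-sequence offset did not act alike. It left Rarb at 1.12 ± 0.41 and took Rara to 0.24 ± 0.25 and Rarg to 0.12 ± 0.25, with adjusted p-values of 0.407, 0.833 and 0.928. The cartilage marker sum was also higher in both hindlimb libraries, though of its 5 markers 1 passed in each direction. The sum of 5 epidermis markers was higher there too, at 1381 and 1790 CPM in hindlimb and 1038 and 1107 CPM in forelimb. Of these markers 2 passed in each direction. The part of either tissue in the receptors' values was not tested. The tags with most counts are shown for each receptor.
Rara last site, 3′UTR, chr11:98974636-98974656: CATGgggcccttcaacacaca
Rarb last site, 3′UTR, chr14:16430859-16430879: CATGgagtctcctggcaaaga
Rarb next site, 3′UTR, chr14:16430995-16431015: CATGtaagcactagtggaatt
Rarg last site, coding exon 9 of 10, chr15:102238840-102238860: CATGttcccaaggatgctgat
The Rara tag had 131 and 208 counts in hindlimb and 78 and 24 in forelimb (log2 fold change 1.21, adjusted p = 0.148 among single tags). The Rarb tag of the last site had 55 and 90 counts in hindlimb and 13 and 6 in forelimb (2.30 ± 0.64, adjusted p = 0.0584), while that of the next site, of lower GC content (35.3% against 52.9%), had 34 and 20 in hindlimb and 1 and 17 in forelimb (0.39). The 1 count in forelimb replicate 1 and the 17 in forelimb replicate 2 of this second tag stand on either side of what the first tag shows there, 13 and 6. The Rarg tag had 399 and 465 counts in hindlimb and 266 and 58 in forelimb (0.97, adjusted p = 0.199). A tag in the last exon of Rara, with 17 and 27 counts in hindlimb and 0 in both forelimb libraries, passed among single tags (adjusted p = 0.0483). A count of 0 of a single tag allows up to 0.818 and 1.94 CPM in forelimb, and the call was lost without hindlimb replicate 2 (adjusted p = 0.186) or forelimb replicate 1 (adjusted p = 0.0968).

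The 3 receptors share NlaIII sites at matching places in their coding sequences, so closely related tags can be set side by side. At the site 253 coding bases before the end of Rarg, and 271 and 250 bases before the end of Rara and Rarb, the tags are the following, without the CATG and with capitals at the bases that differ from Rarg.
Rara: ttcccCaAgatgctgat
Rarb: ttTccaaAgatCTtAat
Rarg: ttcccaaggatgctgat
The Rara tag differs from that of Rarg at 2 bases and had 14 and 0 counts in hindlimb and 8 and 5 in forelimb, and the Rarb tag differs at 5 bases and had 0 and 0 in hindlimb and 0 and 1 in forelimb. At the next shared site upstream, across an exon junction, the Rarg tag had 111 and 90 counts in hindlimb and 39 and 12 in forelimb (log2 fold change 1.42, adjusted p = 0.11). There the Rara tag, with 5 differences, had 6 and 11 in hindlimb and none in forelimb, and the Rarb tag, with 4 differences, had 1 and 5 in hindlimb and 2 and 1 in forelimb. The closest pair lay at another shared site, where the Rara tag differs from that of Rarg at 1 base. There the Rara tag had 3 and 2 counts in hindlimb and 2 and 1 in forelimb, the Rarb tag, with 6 differences, had 0 and 0 in hindlimb and 10 and 0 in forelimb, and the Rarg tag had 0 and 0 in hindlimb and 0 and 2 in forelimb. Only tags that match the transcripts of 1 gene alone were compared, so a tag shared by 2 receptors could not appear at these sites. Whether counts of one receptor were taken for another was not tested. The last NlaIII site of the Rarg transcript lies in coding sequence, so no tag could come from its 3′UTR. Coding sites held 92.3% and 91.8% of its counts in hindlimb and 95.3% and 92.4% in forelimb.

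Rxra (chr2:27676440-27762957, plus strand), which pairs with the RARs and with other nuclear receptors, lay in the other direction. It had 33.1 and 18.0 CPM in hindlimb and 32.3 and 65.9 CPM in forelimb, from 148 and 71 counts in hindlimb and 126 and 106 in forelimb. One forelimb library stood above the other 3 and one hindlimb library below them, the remaining pair being close, and the fold change of -0.91 ± 0.43 did not pass (edgeR adjusted p = 0.147). It passed without hindlimb replicate 1 (-1.43, adjusted p = 0.013) and when the most abundant tag (-1.81, adjusted p = 0.0339) or the tags of the last NlaIII site (-1.78, adjusted p = 0.024) were used alone. That site gave more counts than any other single tag of the gene.
Rxra last site, 3′UTR, chr2:27762903-27762923: CATGagaggagagacaaatat
The tag had 55 and 23 counts in hindlimb and 82 and 64 in forelimb (log2 fold change -1.72 ± 0.58, adjusted p = 0.0936 among single tags, and -0.49 with the offset). A further tag of the 3′UTR with 47 and 9 counts in hindlimb and 46 and 28 in forelimb carries no gene in the deposited table.

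Across the 97 tags given to the 9 genes, 25 were tested singly, and 16 had a fold change above 0 and 9 below. Of the 25, 3 passed as higher in hindlimb, 2 of Crabp1 and 1 of Rara, and none as higher in forelimb, where 4.58% and 1.64% of all single tags tested passed. With the tag-sequence offset none of the 3 passed (adjusted p = 0.709 and 0.89 for Crabp1 and 0.663 for Rara). Among the 11 tested tags with a GC content of at least 50%, 9 were above 0 with a median of 1.45, and among the 14 others 7 were above 0 with a median of 0.11. Over all tags tested the medians were 1.0 at or above 50% and -0.65 below it. Pearson's r between fold change and GC content was 0.36 over the 25 tags and 0.57 over all tags, and 0.05 and 0.12 with the offset. The 25 include the Rara tag with 0 counts in both forelimb libraries, whose fold change was 7.21, and 6.60 with the offset. With no forelimb count the size of that fold change is not determined. The r over the 25 can rest in part on this tag, and it was not computed without it. Tags of 1 gene share their transcript and all tags share the 4 libraries, so these are descriptions.

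**Figure D5:**
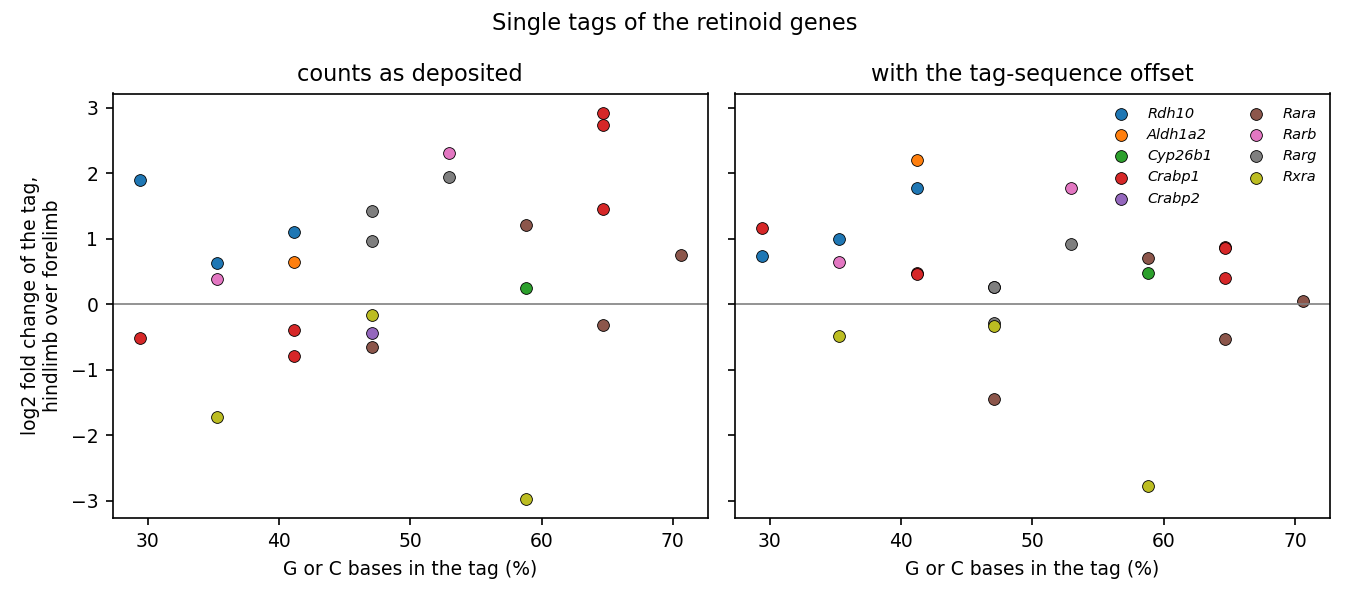
Log2 fold change of hindlimb over forelimb against GC content for 24 tested tags of the retinoid genes, coloured by gene, from the counts as deposited (left) and with the tag-sequence offset (right); the Rara tag with no forelimb count is left out. On the left the Crabp1 tags of 64.7% GC lie between 1.45 and 2.92 and those below 42% lie under 0; on the right all 6 lie between 0.40 and 1.16.

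Other genes of retinoid supply and reception, 23 in all, gave 4 calls among the 14 tested, 3 higher in hindlimb and 1 higher in forelimb, with a median fold change of 0.04. Over all genes tested 9.58% passed as higher in hindlimb and 7.08% as higher in forelimb, 16.7% in all. Stra6, the membrane receptor that takes up retinol from its carrier, had 30.9 and 26.9 CPM in hindlimb and 9.73 and 9.32 CPM in forelimb (log2 fold change 1.59 ± 0.44, edgeR adjusted p = 0.0199). With the offset its fold change was 1.36 and did not pass (adjusted p = 0.28). Rxrb, a second RXR, had 59.2 and 72.8 CPM in hindlimb and 29.4 and 23.6 CPM in forelimb (1.30, adjusted p = 0.0213; 0.38 with the offset). Fabp5, which can also carry retinoic acid to a nuclear receptor, had 817 and 552 CPM in hindlimb and 340 and 285 CPM in forelimb (1.13, adjusted p = 0.024; 0.19 with the offset). Rbp4, the retinol carrier of the blood, was lower in hindlimb, with 18.6 and 22.1 CPM there and 48.1 and 41.0 CPM in forelimb (-1.14, adjusted p = 0.0453; -0.26 with the offset). Stra6 did not pass with its most abundant tag alone (0.33), nor Rxrb with the tags of its last site (0.74). None of the 4 calls held when either forelimb library was left out (adjusted p = 0.0876 to 0.233), those of Fabp5 and Rbp4 did not hold without hindlimb replicate 1 (0.0618 and 0.0769), and those of Rxrb and Rbp4 did not hold without hindlimb replicate 2 (0.0691 and 0.0782). The Rbp4 call was also lost in DESeq2 (-1.15, adjusted p = 0.0503) and with its most abundant tag alone (-1.36, adjusted p = 0.0519). Cyp26c1, Dhrs9, Rbp3 and Ttr had no count, and Cyp26a1, Aldh1a1, Lrat, Rdh5 and Rbp2 had too few to be tested.

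Of 13 coregulators of the receptors, all tested, 1 passed: the coactivator Ncoa2 fell in hindlimb, with 66.0 and 68.7 CPM there and 187 and 181 CPM in forelimb (log2 fold change -1.45, edgeR adjusted p = 0.00566; -0.44 with the offset; adjusted p = 0.0546 without forelimb replicate 1). The median over the 13 was -0.08. Of 14 genes known to respond to retinoic acid, 9 were tested and 3 passed, among them Stra6 again, with a median of 0.17. The share over all genes tested, 16.7%, stands beside 1 of 13 coregulators and 3 of 9 responsive genes. Meis1, a homeobox gene of the proximal limb, had 10.1 and 5.58 CPM in hindlimb and 21 and 37.3 CPM in forelimb (-1.86, adjusted p = 0.0158; -0.55 with the offset). Tgm2, a transglutaminase, had 7.38 and 0.761 CPM in hindlimb and 29.2 and 19.3 CPM in forelimb (-2.56, adjusted p = 0.0151; -0.91 with the offset). These came from 33 and 3 counts in hindlimb and 114 and 31 in forelimb. The 3 counts in hindlimb replicate 2 are no more than a count of 0 allows there. The calls of this list lay in both directions. That of Meis1 was lost without forelimb replicate 2 (adjusted p = 0.129) or hindlimb replicate 2 (0.0741), and that of Tgm2 without forelimb replicate 1 (0.0832). Without hindlimb replicate 1 the fold change of Tgm2 was -4.95, with the 3 counts of hindlimb replicate 2 as its only hindlimb value.

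Other nuclear receptors that pair with RXR, 13 genes of which 11 were tested, gave 2 calls higher in hindlimb and 1 lower, with a median of -0.26, where 9.58% of all genes tested passed as higher in hindlimb and 7.08% as lower. Thra, a thyroid hormone receptor, had 163 and 249 CPM in hindlimb and 69.1 and 66.5 CPM in forelimb (log2 fold change 1.60, edgeR adjusted p = 0.00451), and its direction turned with the offset (-0.24). Nr1h2, an oxysterol receptor, had 115 and 210 CPM in hindlimb and 65.3 and 59.6 CPM in forelimb (1.37, adjusted p = 0.014; 0.23 with the offset). Pparg, the receptor of adipocyte differentiation, had no count in either hindlimb library, which allows up to 0.671 and 0.761 CPM, and 10 and 9 counts, or 2.56 and 5.59 CPM, in forelimb (adjusted p = 0.0282). Thra and Nr1h2 did not pass when either forelimb library was left out (adjusted p = 0.054 to 0.124), nor Nr1h2 without hindlimb replicate 2 (0.125), nor Pparg when either hindlimb library was left out (0.0572 and 0.124) or with the GC offset (0.0956). With the tag-sequence offset no gene of the 4 lists passed, and their medians were 0.20, 0.08, 0.20 and 0.23 in the order given here.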

How the data were processed

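The deposited table holds raw tag counts for the 4 libraries, beside the UniGene cluster and Ensembl gene that the authors assigned to a tag. Bowtie and mm9 are named per the submitters' processing notes; Bowtie's version is not given in the sources used here. Counts were summed per Ensembl gene, or per cluster where no gene was given; tags with neither (14.8% to 18.7% of a library) were left out, except where tags were assigned from M21. Each tag was also matched to every CATG on the sense strand of GENCODE M21 transcripts (GRCm38), the source of all positions, and on the opposite strand. Only sense matches were used where tags were assigned from M21.

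Limb types were tested in edgeR 4.0.16 under R 4.3.3 (TMM, filterByExpr, glmQLFit and glmQLFTest, no replicate block), adjusted by Benjamini-Hochberg over all genes or all single tags at 0.05. In the gene fit the spread of a gene had 2 residual degrees of freedom. It was drawn toward that of all genes with 16 prior degrees of freedom. Scripts were tested on simulated data. CPM values are TMM-scaled. The tag-sequence offset models base and position in a tag, per library, on 61466 tags with at least 10 counts. Alternatives were other scalings, no filter, DESeq2 1.42.0, leaving out each library, a replicate block, other choices of tags, and offsets for GC (lowess, span 0.3) or tag sequence. The replicates of a limb type differed by more than sampling noise (chi-square per degree of freedom 20 in hindlimb and 8.72 in forelimb), and r of log2 CPM was 0.927 and 0.928 within limb types and 0.777 to 0.888 between them, across genes, which are not independent. The 9 genes and the 4 lists, from textbook knowledge, were chosen with earlier results of these data known. Named were all 9, up to 4 of each list with the smallest p among those that passed, up to 4 tags of each gene with most counts, and Pitx1, Tbx4 and Tbx5 as a check of the labels; Tbx4 had 43.1 and 57.6 CPM in hindlimb and 8.71 and 3.11 in forelimb. Tags without a gene in the table, sites 5 and 6 of Crabp1 and the shared receptor sites were named after their values were seen.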

Additional observations from a re-analysis of the deposited data

Results flagged for a closer look

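Tags that match the transcripts of 1 retinoid gene alone, yet carry no Ensembl gene in the deposited table, held counts that were not added to that gene. Where such a tag had a UniGene cluster, its counts were summed under the cluster instead. They were singled out as data that the values of these genes leave out. Cyp26b1 had 964 such counts, 347 and 238 in the hindlimb libraries and 303 and 76 in the forelimb libraries. Rxra had 178, with 57 and 37 in hindlimb and 49 and 35 in forelimb. Rdh10 had 174, with 52 and 16 in hindlimb and 62 and 44 in forelimb. Rarb had 20, with 1 and 5 in hindlimb and 12 and 2 in forelimb, of which 10 lay in a single tag of forelimb replicate 1. Rarg had 20 in 1 tag, with 3 and 6 in hindlimb and 11 and 0 in forelimb. Aldh1a2, Crabp1, Crabp2 and Rara had none.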

How the results depend on the processing

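Over the 9 genes and up to 16 alternatives each, 116 of 144 results kept direction and side of the threshold, 14 no longer passed, 7 newly passed and 7 changed sign; why was not tested. Genes called, 2285, became 897 with the GC offset, 23 with the tag-sequence offset and 950 to 3900 when each library was left out (3900 without hindlimb replicate 1). Of the 9 genes the number called, 2, became 1 with library totals alone or DESeq2, 0 with either offset and 0 to 4 without each library. Supply genes called, 4, became 2 with tags of the last site, 0 with the tag-sequence offset and 0 to 3 without each library. Coregulators called, 1, became 2 without the filter, in DESeq2 or with tags of 1 M21 gene, 0 with either offset and 0 to 3 without each library. Responsive genes called, 3, became 5 without the filter, in DESeq2 or with the most abundant tag, 1 with the GC offset, 0 with the tag-sequence offset and 1 to 6 without each library. RXR partners called, 3, became 0 with either offset and 0 to 4 without each library. Single tags called, 2350, became 3707 without the filter, 12 with the tag-sequence offset and 2117 to 10287 without each library. Signs changed for Rdh10 with M21 assignment (-0.28), Cyp26b1 (-0.28) and Rara (-0.26) with the GC offset, Crabp1 (0.59), Crabp2 (0.25) and Thra (-0.24) with the tag-sequence offset, and when single libraries were left out for Aldh1a2 (-0.13 to 2.02) and Crabp1 (-0.55 to 0.01). Among tags they changed with the tag-sequence offset at Crabp1 sites 2, 1 and 3 (0.48, 1.16, 0.47), Crabp2 (0.27) and the second Rarg tag (-0.28), and when single libraries were left out at an Rdh10 tag (-0.28 to 2.17), a Rara tag (-0.93 to 0.41), Aldh1a2 (-0.31 to 2.91), Crabp1 site 1 (-1.09 to 0.35) and the second Rarb tag (-0.72 to 4.42). The second Rxra tag changed to 0.03 without the filter and ran from -0.84 to 0.92 when single libraries were left out. With the replicate number as a block 2151 genes and 2 of the 9 were called, Rarb at 1.42 (adjusted p = 0.0335) and Rarg at 1.11 (adjusted p = 0.0414), and the block ended the calls of Rbp4 (adjusted p = 0.0582) and Pparg (0.0589); the numbers of 2 pairs cannot show a pairing (r of deviations -0.105). A crossed pairing, added after seeing the data, called 3170 genes, or 23.1% of all genes tested against 16.7% in the main fit. It called 3 of the 9, 5 supply genes, 3 coregulators and 6 responsive genes, and ended the call of Pparg (edgeR adjusted p = 0.0609). Beside the counts of calls above, the share of all genes tested was 11.2% without the filter and 16.5% in DESeq2. That share was 15.4% with library totals alone, 15.7% with the block, 17.7% with tags of 1 M21 gene and 23.5% with the most abundant tag. With a library left out, the lone library of its limb type is assumed to vary like the others. Forelimb replicate 2, of 1829647 tags, limits what low counts can show.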

Other observations

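Of the 33 tags of the retinoid genes with at least 20 counts over the 4 libraries, 0 and 4 had no count in hindlimb replicates 1 and 2, and 5 and 2 had none in forelimb replicates 1 and 2. Over all 46583 tags with a feature and at least 20 counts the shares at 0 were 1.09% and 9.62% in hindlimb and 4.07% and 7.49% in forelimb. The table gave Rarg 5 tags, with 23 counts, that match the opposite strand of its transcripts, and it gave such tags to Rarb (2 tags, 8 counts), Cyp26b1 (3 tags, 6 counts) and Aldh1a2 (1 tag, 1 count).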
